A study of Mus musculus with 9 samples.

Results

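The genes of collagens, laminins and matrix glycoproteins were followed through 4 stages of the mouse mammary gland. They were chosen by gene symbol alone, as every collagen chain, laminin chain, fibulin, fibrillin, nidogen and thrombospondin gene on the array together with Fn1, Sparc, Mgp, Tnc, Dcn, Lum and Bgn. This gave 54 genes with 77 probe sets among the 8251 genes that the array names by 1 symbol. Where a gene had several probe sets, as 17 did, the brightest was used. RNA came from the whole inguinal gland (gland no. 4) of female wild type C57BL/6J mice, an inbred strain, at involution (day 4 after weaning, 2 animals), lactation (day 10, 2 animals), pregnancy (day 14, 2 animals) and puberty (virgins of 6 weeks of age, 3 animals). Each of the 9 animals was measured on 1 Affymetrix MG-U74Av2 array, and no animal carried a transgene or received a treatment. The values given for single arrays are MAS5 signals, linear intensities in arbitrary units that were scaled here to the same median on every array.

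The extracellular matrix of the mammary gland has layers with different makers and different partners. Fibrillar collagens form the rope-like fibres of the connective tissue between ducts and are made mainly by fibroblasts. Type IV collagens, laminins and nidogens build the basement membrane, the thin sheet on which epithelium, blood vessels and fat cells rest, and it is known in this tissue for the signals that milk-secreting cells receive from it. Small proteoglycans, fibulins, thrombospondins and other glycoproteins coat, space or link these scaffolds. The gland itself passes from a few ducts in a fat pad at puberty to a tissue filled with secretory alveoli at lactation and loses these alveoli during involution. Because whole glands were measured, fewer cells of a type and less RNA per cell cannot be told apart in any of the values below.

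Promoter sequences of 35 of the 54 genes were found in RefSeq's mouse annotation (assembly GRCm38.p6). The 250 bases before the transcript start are shown for Col1a2 and Col3a1, fibrillar genes whose signals were low at lactation and at involution, and for Col17a1, an epithelial collagen that was highest at involution. The capitals mark 3 short promoter motifs that were searched on both strands. One is the core of the TATA box, spelled TATAAA. Another is the box spelled CCAAT, and the last is the GC box, spelled GGGCGG. In Col17a1 the capitals nearest to the start read the CCAAT box on the opposite strand. The 4 stretches lie at chr6:4505368-4505617 (Col1a2, plus strand), chr1:45311288-45311537 (Col3a1, plus strand), chr19:47692043-47692292 (Col17a1, minus strand) and chr8:11312773-11312802 (Col4a1 and Col4a2, given on the strand of Col4a2).
Col1a2: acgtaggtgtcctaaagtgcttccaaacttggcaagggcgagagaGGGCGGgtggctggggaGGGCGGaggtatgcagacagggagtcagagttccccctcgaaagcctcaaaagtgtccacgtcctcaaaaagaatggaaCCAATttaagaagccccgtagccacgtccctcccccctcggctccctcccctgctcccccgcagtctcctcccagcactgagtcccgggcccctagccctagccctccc
Col3a1: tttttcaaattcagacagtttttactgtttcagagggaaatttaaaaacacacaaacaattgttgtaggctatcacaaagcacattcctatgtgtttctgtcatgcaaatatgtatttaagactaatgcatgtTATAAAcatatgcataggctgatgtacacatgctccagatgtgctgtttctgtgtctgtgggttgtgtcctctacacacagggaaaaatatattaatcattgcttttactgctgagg
Col17a1: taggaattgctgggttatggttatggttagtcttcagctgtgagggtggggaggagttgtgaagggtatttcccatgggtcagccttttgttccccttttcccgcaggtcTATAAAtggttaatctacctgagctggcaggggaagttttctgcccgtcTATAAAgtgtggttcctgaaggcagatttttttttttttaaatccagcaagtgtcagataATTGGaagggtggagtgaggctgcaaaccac
Col4a1 and Col4a2: CCAATttgttggcgctgccccctcccctcg

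The last stretch is shown because Col4a1 and Col4a2, which encode the 2 chains of the common type IV collagen, are annotated on opposite strands with starts 21 bases apart. The starts are at 11312826 (Col4a1, minus strand) and 11312805 (Col4a2, plus strand), so the 2 annotated transcripts overlap there. The printed stretch therefore lies before the start of Col4a2 but after that of Col4a1. The windows of the table, which also hold the first 50 bases after each start, share 78 bases for this pair, while the stretches before the starts do not overlap. The printed stretch begins with a CCAAT box 32 bases before the start of Col4a2. The Col4a2 window also held GC boxes at 192 and 48 bases before its start, the nearer one on the opposite strand, and the Col4a1 window held a CCAAT box on the opposite strand at 145 bases. The Col1a2 window held a pair of GC boxes, 205 and 188 bases before the start, and a CCAAT box at 109 bases. The Col3a1 window held TATAAA at 117 bases before the start, and that of Col17a1 held it at 140 and 91 bases. Over all 27025 promoters of the annotation, TATAAA occurred in 13% of the windows, CCAAT in 34.5% and GGGCGG in 33%. Among the 35 matrix gene windows, the shares were 20% (7 windows), 34.3% (12) and 51.4% (18). These are matches of letters and do not show that a factor was bound.

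Of the 54 genes, 48 passed the filter for low signal, a mean above 20 units in at least 1 stage. The other 6 were Col2a1, Col11a2, Col4a3, Col4a4, Col19a1 and Col22a1, which belong mainly to cartilage, kidney or other specialised matrices. Their means were at or under 20 units in every stage, and they were not tested. Each gene was compared over the stages with limma on log2 signals, and a gene was called where its p-value, adjusted by Benjamini-Hochberg over all 9784 tested probe sets, was under 0.05. The stages differed by the F test for 36 of the 48 genes, against 51.6% of all tested probe sets. Of these 36 genes, 29 had their lowest mean at lactation, 5 at puberty, 1 at pregnancy and 1 at involution. Among all probe sets past the F test, lactation was lowest for 42.5%. The highest mean was at pregnancy for 14 genes, at puberty for 13, at involution for 6 and at lactation for 3. For all probe sets past the F test, the highest stage was lactation in 44.1%, involution in 21.8%, puberty in 17.7% and pregnancy in 16.3%.

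**Figure D1:**
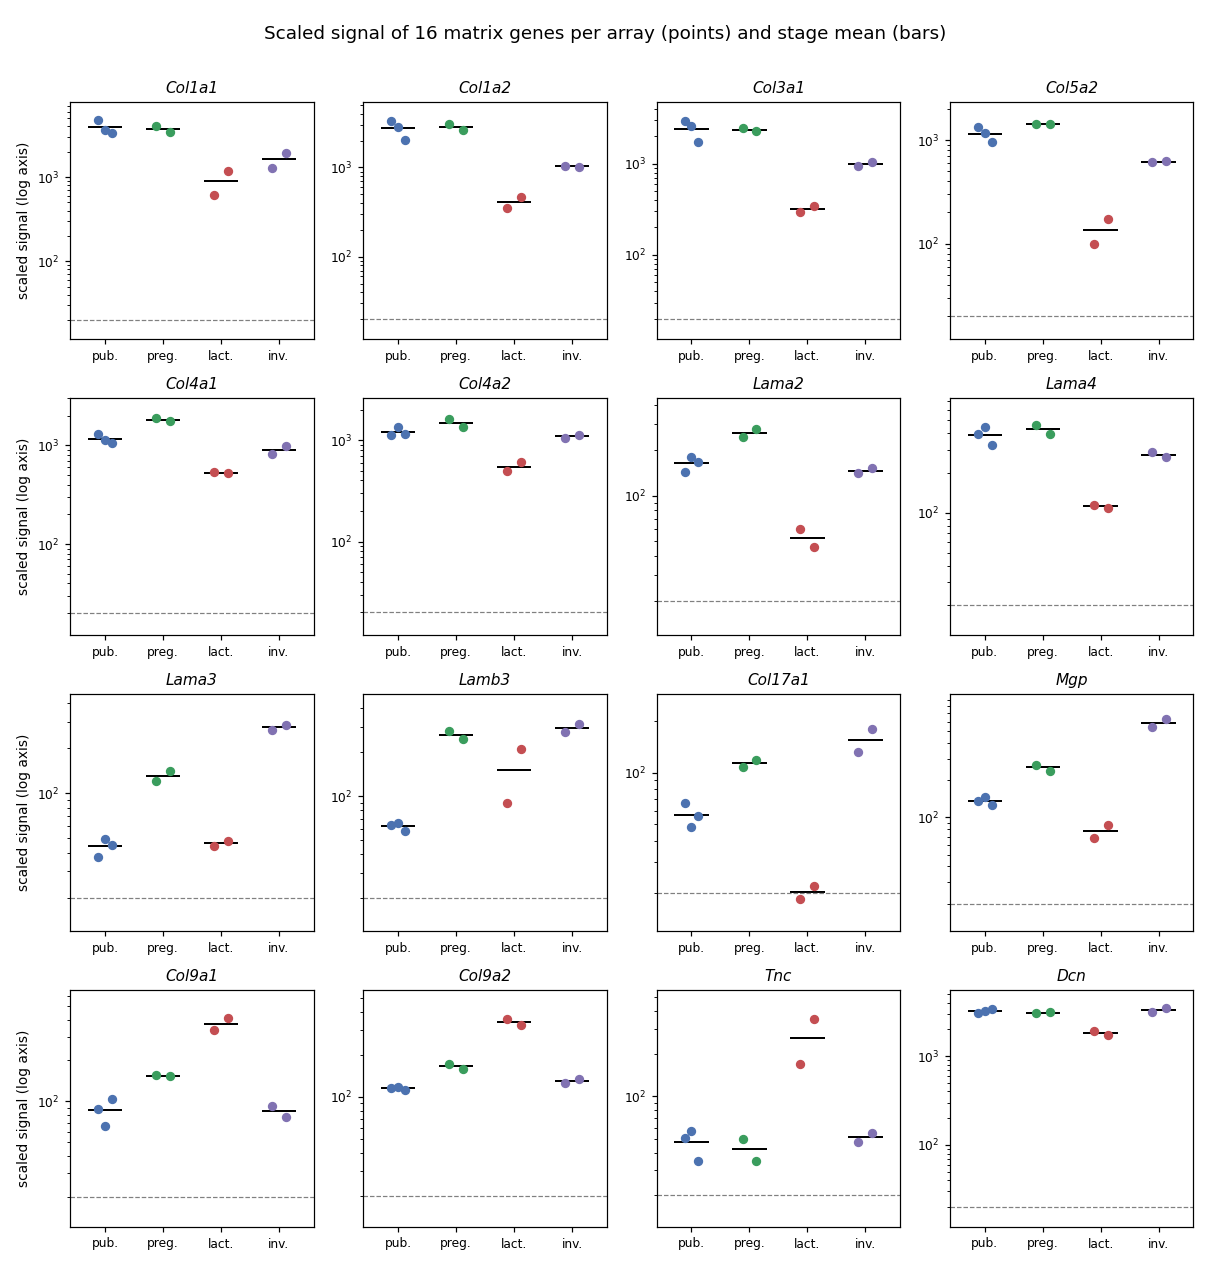
Scaled signal in arbitrary units on a log axis for 16 matrix genes, 1 panel a gene, at puberty, pregnancy, lactation and involution. Each point is 1 array, short bars give the mean of a stage, and a dashed line marks 20 units, the floor; the upper 8 panels have their lowest values at lactation, while Col9a1, Col9a2 and Tnc have their highest there.

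The 4 contrasts were taken from the same fit, and since neighbouring contrasts share arrays, their results are not independent of each other. Between pregnancy and puberty, 10 matrix genes were higher at pregnancy and 0 lower, where 6.20% of all tested probe sets were higher and 5.22% lower (11.4% in either direction). This count was 2 (Lama3 and Col9a3) without either of the pregnancy arrays, 5 without puberty replicate 2 and 6 without puberty replicate 3. At lactation, 28 matrix genes were lower than at pregnancy and 4 were higher, where 19.7% and 21.6% of all probe sets were (41.3% in either direction). Their median log2 change was -0.92, against 0.07 over all tested probe sets. At involution, 27 were higher than at lactation and 3 lower, where 22.1% and 23.0% of all probe sets were (45.1% in either direction), with a median of 0.87 against -0.03. Involution set against puberty gave 5 matrix genes higher and 7 lower, against 4.38% and 3.10% of all probe sets (7.48% in either direction). The split over all probe sets in that last contrast, 429 higher and 303 lower, turned to 335 and 386 with the signals scaled as deposited.

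The arrays themselves can be compared without a test, by asking whether those of 1 stage lay wholly apart from those of the other. At pregnancy against puberty, 18 of the 48 matrix genes had all pregnancy arrays above puberty and 8 had all below, where 47.4% of all tested probe sets did not overlap in either direction. At lactation against pregnancy, 35 had all lactation arrays below and 5 above (73.0% of all probe sets did not overlap), and at involution against lactation, 34 had all involution arrays above and 5 below (71.7%). At involution against puberty, 10 lay above and 16 below (42.4%), and 22 overlapped.

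**Figure D2:**
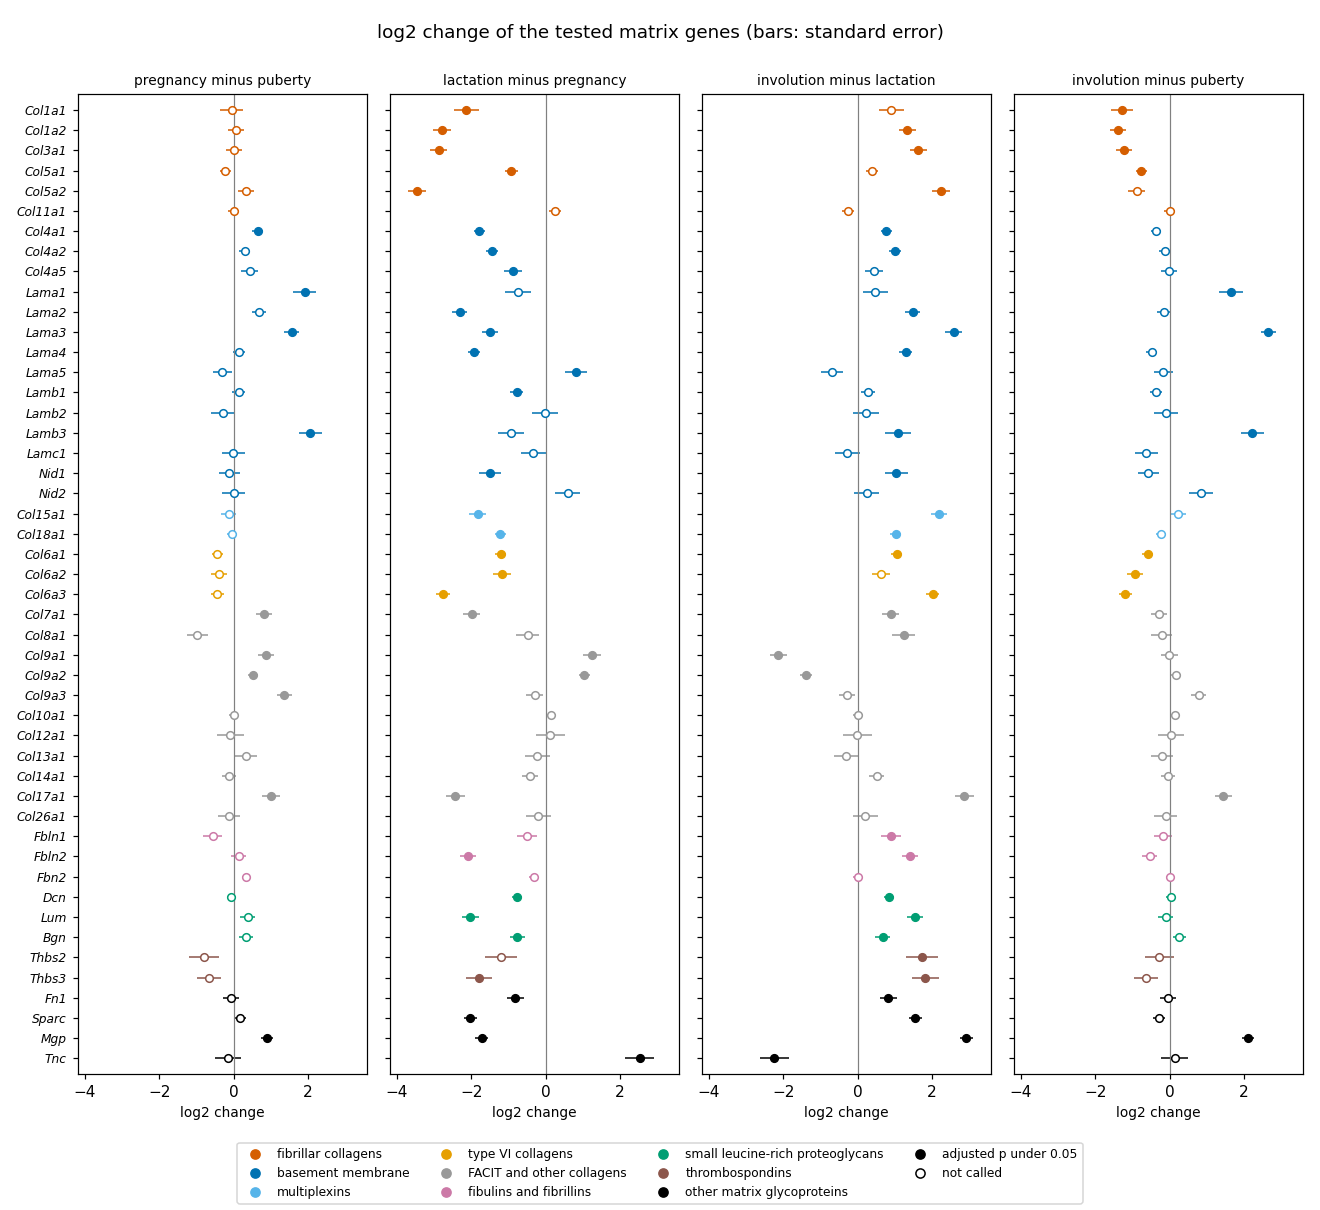
Log2 change of the 48 tested matrix genes in 4 contrasts, with genes in rows, coloured by class, and bars of 1 standard error. Filled points have an adjusted p under 0.05; the second panel holds 28 filled points left of 0 and 4 right of it, and the fourth holds 7 and 5.

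The fibrillar collagens were lowest at lactation, and most were still below their puberty level at involution, though the calls there depended on single arrays. Of the 8 genes, 6 were tested, and Col11a1, a minor fibril chain of cartilage, stayed near the floor with stage means of 12.7 to 22.6 units. The other 5, the chains of collagens I, III and V, were all called lower at lactation than at pregnancy, 3 of them were called higher at involution than at lactation, and 4 remained lower at involution than at puberty. None was called between pregnancy and puberty.

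Col1a1, the alpha 1 chain of type I collagen, had signals of 4812, 3592 and 3333 at puberty, 4030 and 3426 at pregnancy, 606 and 1187 at lactation, and 1294 and 1952 at involution. All 4 later arrays of lactation and involution lay below all 5 arrays of puberty and pregnancy. Its signal was 4.38-fold lower at lactation than at pregnancy (log2 change -2.13 ± 0.33 SE, adjusted p = 0.00142). At involution it was 2.43-fold lower than at puberty (log2 change -1.28 ± 0.30, adjusted p = 0.0386), and the difference from lactation missed the threshold (0.91 ± 0.33, adjusted p = 0.0535). Col1a2, the second chain of the same collagen, had 3344, 2849 and 2042 units at puberty, 3047 and 2598 at pregnancy, 353 and 470 at lactation, and 1048 and 1010 at involution. Lactation was lowest without overlap, and the involution arrays fell between it and puberty. The changes were -2.79 ± 0.24 at lactation against pregnancy (6.91-fold lower, adjusted p = 8.18e-05), 1.34 ± 0.24 at involution against lactation (adjusted p = 0.00222) and -1.39 ± 0.22 at involution against puberty (2.61-fold lower, adjusted p = 0.00709). A further probe set of Col1a2 went the other way at involution against lactation (-0.74, adjusted p = 0.0264) and was not called against puberty (0.14). With all probe sets averaged, the call at involution against lactation was lost (0.30).

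Type III collagen, a fibre component of soft connective tissue encoded by Col3a1, followed the same course. Its signals were 2939, 2562 and 1709 at puberty, 2445 and 2280 at pregnancy, 298 and 345 at lactation, and 942 and 1050 at involution, so that neither lactation nor involution overlapped with puberty. It was 7.36-fold lower at lactation than at pregnancy (adjusted p = 6.79e-05), 3.10-fold higher at involution than at lactation (adjusted p = 0.000758) and 2.36-fold lower at involution than at puberty (adjusted p = 0.0111). The type V chains regulate fibril thickness, and the largest log2 change at lactation among the tested fibrillar genes was in one of them. Col5a2 had 1334, 1162 and 961 units at puberty, 1438 and 1445 at pregnancy, 99.9 and 172 at lactation, and 611 and 626 at involution. This was 10.99-fold lower at lactation than at pregnancy (log2 change -3.46 ± 0.25, adjusted p = 3.41e-05) and 4.72-fold higher at involution than at lactation (adjusted p = 0.000195). Against puberty, involution was lower on both arrays but missed the threshold (log2 change -0.88 ± 0.23, adjusted p = 0.0503). Its partner Col5a1 moved less, by -0.92 ± 0.17 at lactation against pregnancy (adjusted p = 0.00282) and by -0.77 ± 0.15 at involution against puberty (adjusted p = 0.0194).

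In all 5 genes both involution arrays lay below all 3 puberty arrays, where 42.4% of all tested probe sets did not overlap in either direction. The number of the class called in that contrast depended on single arrays, however. It was 4 with all arrays, 1 without involution replicate 1 and 0 without involution replicate 2, which left 2 matrix genes called in all (Lama3 and Mgp). It was 2 without any single lactation or puberty array and 3 without either pregnancy array. Col1a1 lost its call whichever of the 9 arrays was left out. The 5 calls at lactation against pregnancy were kept under every alternative tried.

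The basement membrane genes had a broader range of courses. Of the 16 genes, 14 were tested, and 9 were called by the F test. Against puberty, 4 were higher at pregnancy (Col4a1, Lama1, Lama3 and Lamb3) and 0 lower. At lactation 8 were lower than at pregnancy and 1 higher, at involution 7 were higher than at lactation and 0 lower, and 3 were higher at involution than at puberty (Lama1, Lama3 and Lamb3) with 0 lower. Col4a5, among the 8 lower at lactation, and Lama5, the 1 higher, were not called by the F test (adjusted p = 0.069 and 0.126). Among the 8 that were lower at lactation, 6 were higher again at involution and 0 were called lower than at puberty. Without regard to calls, 4 of the 14 (Col4a1, Lama4, Lamb1 and Lamc1) had both involution arrays below all puberty arrays, 4 had them above and 6 overlapped. Of all tested probe sets, 42.4% did not overlap in either direction.

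The 2 chains of the common type IV collagen, with the stretch before the Col4a2 start printed above, come first. Col4a1 had 1307, 1135 and 1069 units at puberty, 1879 and 1765 at pregnancy, 532 and 524 at lactation, and 812 and 994 at involution. Pregnancy stood above and lactation below every other array. It was 1.56-fold higher at pregnancy than at puberty (log2 change 0.64 ± 0.14, adjusted p = 0.0188, lost without either pregnancy array and without puberty replicate 2 or 3), 3.45-fold lower at lactation than at pregnancy (adjusted p = 7.61e-05) and 1.70-fold higher at involution than at lactation (adjusted p = 0.00364). Both involution arrays lay below all puberty arrays without a call (log2 change -0.38 ± 0.14, adjusted p = 0.147). Col4a2 had 1113, 1333 and 1159 units at puberty, 1614 and 1349 at pregnancy, 494 and 603 at lactation, and 1062 and 1130 at involution. Its involution and puberty arrays overlapped (log2 change -0.13 ± 0.15, adjusted p = 0.678), while lactation was 2.70-fold lower than pregnancy (adjusted p = 0.000279). Col4a5, a chain of rarer type IV networks, was dim and was called only at lactation against pregnancy (log2 change -0.88 ± 0.24, adjusted p = 0.0191), a call that was lost without pregnancy replicate 1 and with a floor of 50 (-0.0072). Of its lactation arrays, 1 was under the floor of 20 units.

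Laminins are trimers of an alpha, a beta and a gamma chain, and the alpha chain marks the kind of basement membrane. Lama4, found in the membranes of blood vessels and fat cells, had 394, 446 and 328 units at puberty, 458 and 397 at pregnancy, 116 and 109 at lactation, and 288 and 264 at involution. The lactation arrays were the lowest, 3.80-fold below pregnancy (log2 change -1.93 ± 0.17, adjusted p = 0.000105), and the involution arrays lay between them and puberty. Lama2, the alpha chain of muscle and nerve membranes, was 4.97-fold lower at lactation than at pregnancy (adjusted p = 9.23e-05) and 2.80-fold higher at involution than at lactation (adjusted p = 0.00056). The widely used beta chain Lamb1 had 193, 191 and 189 units at puberty, 204 and 216 at pregnancy, 121 and 123 at lactation, and 125 and 175 at involution. It fell at lactation by 0.78 ± 0.18 on the log2 scale (adjusted p = 0.00951, lost without pregnancy replicate 2), and no other contrast was called with this probe set. The further probe set of Lamb1 also fell at lactation (log2 change -1.33, adjusted p = 0.00257) and was higher at involution than at lactation (1.01, adjusted p = 0.0085), as was Lamb1 with all probe sets averaged (0.64).

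The common gamma chain Lamc1 was not called in any contrast, with 334, 229 and 302 units at puberty, 344 and 232 at pregnancy, 162 and 311 at lactation, and 161 and 212 at involution. Its spread within stages was wide, and lactation overlapped with both puberty and pregnancy. Nid1 encodes nidogen, which ties the laminin and type IV collagen networks together. It had 90.2, 82.8 and 63.1 units at puberty, 68.3 and 75.8 at pregnancy, 23.4 and 27.7 at lactation, and 66.5 and 41.2 at involution. Lactation was 2.83-fold lower than pregnancy (adjusted p = 0.00462), and involution was 2.06-fold higher than lactation (adjusted p = 0.0213). The second of these calls was lost without involution replicate 1 or without either lactation array. Lamb2 and Nid2 were not called in any contrast.

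The chains that were higher at involution than at puberty came next. Lama3 and Lamb3 join in the laminin that fastens epithelial cells to the membrane beneath them. Lama3 had 37.5, 49.7 and 45.2 units at puberty, 120 and 141 at pregnancy, 44.6 and 48.0 at lactation, and 266 and 288 at involution. Pregnancy and involution each stood apart from the other stages, with involution the highest. The signal was 2.97-fold higher at pregnancy than at puberty (adjusted p = 0.00249), 2.81-fold lower at lactation than at pregnancy (adjusted p = 0.00108), 5.98-fold higher at involution than at lactation (adjusted p = 5.96e-05) and 6.31-fold higher at involution than at puberty (log2 change 2.66 ± 0.20, adjusted p = 0.000235). All 4 calls were kept under every alternative.

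Lamb3 had 64.0, 65.9 and 58.2 units at puberty, 280 and 246 at pregnancy, 89.6 and 212 at lactation, and 276 and 312 at involution. The 3 puberty arrays were the lowest of all, and the 2 lactation arrays differed widely from each other. It was 4.19-fold higher at pregnancy (adjusted p = 0.005) and 4.68-fold higher at involution (adjusted p = 0.00425) than at puberty. The first of these calls was lost without either pregnancy array, and the second without involution replicate 2. Lama1, the alpha chain typical of embryonic membranes, was likewise lowest at puberty and was 3.77-fold higher at pregnancy (adjusted p = 0.00671) and 3.14-fold higher at involution (adjusted p = 0.0169). Each call was lost without either array of the later stage, and that at involution also without either lactation array or pregnancy replicate 2. Lama5, the main alpha chain of adult epithelial membranes, was the 1 member of the class called higher at lactation than at pregnancy. It had 167 and 230 units at lactation, against 97.5 and 127 at pregnancy, and the call (log2 change 0.82 ± 0.29, adjusted p = 0.0486) was kept without puberty replicate 3 but lost without any of the other arrays.

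The class medians show the same contrast in a coarser form. At lactation against pregnancy the median log2 change was -0.91 over the 14 basement membrane genes and -2.46 over the 6 fibrillar genes. At involution against lactation it was 0.62 and 1.12, and at involution against puberty it was -0.14 and -1.06. At pregnancy against puberty it was 0.22 and 0.01. The basement membrane median was thus 1.56 above the fibrillar one at lactation against pregnancy and 0.92 above it at involution against puberty. Arrays of a stage varied around these values. Relative to each gene's puberty mean, the fibrillar median was 0.27, 0.03 and -0.23 on the puberty arrays and -2.80 and -2.11 on the lactation arrays. The basement membrane median was 0.03, 0.12 and -0.03 at puberty and -0.72 and -0.38 at lactation. Whether the classes differ was not tested, since a median over chosen genes has no replicates of its own, and the first value depended on how genes were counted. It was 0.26 with the mean of all probe sets of a gene in place of the brightest and 0.69 with the undetected genes included. The value at involution against lactation, -0.50, changed sign to 0.16 with the mean of all probe sets. The value at involution against puberty was between 0.72 and 1.11 under all alternatives tried.

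**Figure D3:**
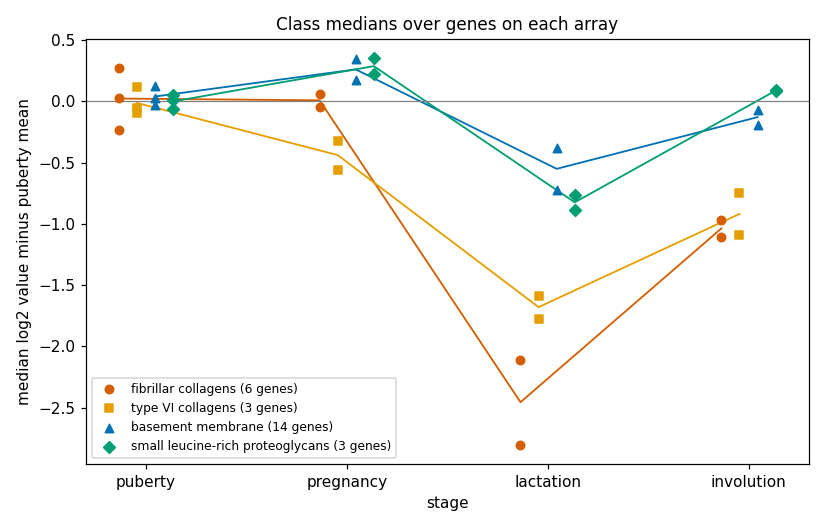
Median over the tested genes of a class of the log2 signal minus each gene's puberty mean, 1 point an array, with lines through stage means. At lactation the fibrillar collagens sit at -2.80 and -2.11 and the basement membrane genes at -0.72 and -0.38; at involution they sit at -1.11 and -0.97, and at -0.19 and -0.07.

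A pair of collagens lies next to the basement membrane. Col15a1 and Col18a1 encode multiplexins, collagens with sugar side chains that link the membrane to the fibres outside it. Col15a1 had 532, 511 and 372 units at puberty, 494 and 368 at pregnancy, 114 and 126 at lactation, and 614 and 487 at involution. Involution overlapped with puberty and was 4.56-fold above lactation (adjusted p = 0.000128). Col18a1 had 357, 326 and 318 units at puberty, 319 and 331 at pregnancy, 127 and 153 at lactation, and 294 and 273 at involution, with changes of -1.22 ± 0.15 at lactation against pregnancy (adjusted p = 0.00041) and 1.02 ± 0.15 at involution against lactation (adjusted p = 0.000755).

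Type VI collagen forms beaded filaments between fibres and cells, and its 3 chains were measured. All 3 fell at lactation against pregnancy, 2 rose at involution against lactation, and all 3 were lower at involution than at puberty. Col6a3 had 1769, 1762 and 1391 units at puberty, 1254 and 1152 at pregnancy, 152 and 204 at lactation, and 766 and 661 at involution. The stages followed each other down without overlap as far as lactation, which was 6.82-fold below pregnancy (log2 change -2.77 ± 0.19, adjusted p = 2.93e-05). Involution was 2.29-fold below puberty (log2 change -1.20 ± 0.17, adjusted p = 0.00449). Col6a1 had 1192, 1125 and 1196 units at puberty, 938 and 796 at pregnancy, 342 and 408 at lactation, and 709 and 847 at involution, which was 2.31-fold lower at lactation than at pregnancy (adjusted p = 0.000482) and 1.51-fold lower at involution than at puberty (adjusted p = 0.0359). Col6a2 was 1.91-fold lower at involution than at puberty (adjusted p = 0.0378). In that contrast the count of 3 was 0 without involution replicate 2, 1 (Col6a3) without any other single array of involution, lactation or puberty, and 2 without either pregnancy array.

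The remaining 13 collagen genes, of which 11 were tested, belong to several families and did not move together. Of these, 5 were higher at pregnancy than at puberty (Col7a1, Col9a1, Col9a2, Col9a3 and Col17a1). Only Col9a3 kept this call under every alternative. The call of Col9a1 was kept without puberty replicate 3 but lost without any other single array. That of Col9a2 was lost without any array of pregnancy or puberty. That of Col17a1 was lost without either pregnancy array, puberty replicate 2 or 3, or lactation replicate 2. Col17a1 encodes a collagen that spans the cell membrane and anchors basal epithelial cells to the anchoring laminin of Lama3 and Lamb3. It had 66.1, 48.3 and 55.9 units at puberty, 108 and 119 at pregnancy, 18.4 and 21.9 at lactation, and 131 and 178 at involution. Each stage stood apart from the others, with 1 lactation array under the floor of 20 units. Its change was -2.43 ± 0.26 at lactation against pregnancy (adjusted p = 0.000226), 2.87 ± 0.26 at involution against lactation (adjusted p = 7.36e-05) and 1.44 ± 0.23 at involution against puberty (2.71-fold higher, adjusted p = 0.00806, lost without involution replicate 2). Col7a1, the collagen of the anchoring fibrils below that layer, was 1.76-fold higher at pregnancy than at puberty (adjusted p = 0.0402, lost without any array of puberty, pregnancy or involution) and was 3.95-fold lower at lactation than at pregnancy (adjusted p = 0.000338).

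Type IX collagen is known best as a cartilage collagen that decorates fibrils, and 2 of its chains were highest at lactation. Col9a2 had 117, 117 and 113 units at puberty, 172 and 158 at pregnancy, 357 and 325 at lactation, and 126 and 134 at involution. The lactation arrays were the highest of the 9, 2.06-fold above pregnancy (adjusted p = 0.000927), and involution was 2.62-fold below lactation (adjusted p = 0.000168). Col9a1 had 333 and 410 units at lactation, against 156 and 153 at pregnancy (2.39-fold, adjusted p = 0.00365), and was 4.38-fold lower at involution than at lactation (adjusted p = 0.000214). The third chain, Col9a3, was 2.57-fold higher at pregnancy than at puberty (adjusted p = 0.00483) and was not called at lactation against pregnancy (log2 change -0.30 ± 0.22, adjusted p = 0.312). Col8a1, a short-chain collagen of vessel walls, was under the floor on both lactation arrays, at 7.0 and 10.8 units, and was at least 2.37-fold higher at involution than at lactation (adjusted p = 0.0108, lost without either lactation array). Col10a1, Col12a1, Col13a1, Col14a1 and Col26a1 were not called in any contrast.

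The small leucine-rich proteoglycans, which bind fibrillar collagen and control the spacing of fibres, fell at lactation and were back at involution. Dcn (decorin) had 3086, 3245 and 3340 units at puberty, 3052 and 3125 at pregnancy, 1896 and 1746 at lactation, and 3125 and 3432 at involution. It was 1.70-fold lower at lactation than at pregnancy (adjusted p = 0.00272), and involution overlapped with puberty (log2 change 0.02 ± 0.13, adjusted p = 0.986). Lum (lumican) had 1027, 1315 and 951 units at puberty, 1388 and 1442 at pregnancy, 314 and 383 at lactation, and 1241 and 823 at involution, a 4.08-fold lower signal at lactation than at pregnancy (adjusted p = 0.000277). Bgn (biglycan) had 1070, 1040 and 1111 units at puberty, 1474 and 1252 at pregnancy, 665 and 969 at lactation, and 1137 and 1453 at involution. Its fall of 0.76 ± 0.20 on the log2 scale (adjusted p = 0.016) was lost without lactation replicate 1 or without pregnancy replicate 1. The rise of Bgn at involution against lactation (0.68, adjusted p = 0.0234) was lost under 4 alternatives. Among them were leaving out involution replicate 2 and leaving out lactation replicate 1. None of the 3 was called at involution against puberty.

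By the brightest probe sets, both fibulins and both thrombospondins had their lowest mean at lactation. Fbln2, which binds laminins and elastic fibres, had 368, 297 and 295 units at puberty, 345 and 355 at pregnancy, 81.5 and 82.8 at lactation, and 177 and 272 at involution. It was 4.25-fold lower at lactation than at pregnancy (adjusted p = 0.000207) and 2.67-fold higher at involution than at lactation (adjusted p = 0.00099). Fbln1 had 208, 204 and 264 units at puberty, 189 and 121 at pregnancy, 116 and 97.3 at lactation, and 163 and 237 at involution, and was called only at involution against lactation (log2 change 0.89 ± 0.27, adjusted p = 0.0266), which was lost without involution replicate 2 or without either lactation array. A further probe set of Fbln1 of nearly the same mean signal (167 against 178 units) went the other way, with 229 and 245 units at lactation, against 164 and 96.0 at pregnancy (log2 change 0.91, adjusted p = 0.0386). With all probe sets averaged, Fbln1 was not called at involution against lactation (log2 change 0.34), so its course is uncertain. Fbn2, an elastic fibre gene, rose above the floor only at pregnancy and was not called.

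Thrombospondins are secreted proteins that modulate adhesion and vessel growth. Thbs3 had 104, 171 and 144 units at puberty, 87.9 and 85.5 at pregnancy, 16.7 and 31.2 at lactation, and 67.1 and 116 at involution, and Thbs2 had 168, 99.5 and 66.6 at puberty, 64.0 and 55.7 at pregnancy, 15.0 and 33.6 at lactation, and 76.9 and 95.4 at involution. In both, 1 lactation array was under the floor. Thbs3 was 3.47-fold lower at lactation than at pregnancy (adjusted p = 0.00444, lost without lactation replicate 1), and Thbs2 missed the threshold there (adjusted p = 0.0519). Both were higher at involution than at lactation, by 3.53-fold (adjusted p = 0.00363) and 3.30-fold (adjusted p = 0.0113, lost without either involution array or lactation replicate 1).

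The last 4 genes, secreted glycoproteins with no common scaffold, split in 3 ways. Fn1 (fibronectin, a cell-binding fibre protein) and Sparc (a collagen-binding protein) fell at lactation and were not called at involution against puberty. Fn1 had 491, 468 and 479 units at puberty, 466 and 445 at pregnancy, 198 and 341 at lactation, and 519 and 410 at involution, and its fall of 0.81 ± 0.24 on the log2 scale (adjusted p = 0.0239) was lost without lactation replicate 1 or without either pregnancy array. Sparc had 1810, 1790 and 1555 units at puberty, 2240 and 1692 at pregnancy, 438 and 519 at lactation, and 1338 and 1460 at involution. It was 4.09-fold lower at lactation than at pregnancy (adjusted p = 8.15e-05), and the involution arrays lay a little below puberty without a call (adjusted p = 0.317).

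Mgp (matrix Gla protein, an inhibitor of calcification) and Tnc (tenascin C, a matrix protein of growth and repair) had other courses. Mgp had 136, 147 and 126 units at puberty, 269 and 240 at pregnancy, 68.1 and 87.4 at lactation, and 548 and 625 at involution. Every stage stood apart, with lactation 3.29-fold below pregnancy (log2 change -1.72 ± 0.18, adjusted p = 0.000207) and involution 7.58-fold above lactation (adjusted p = 1.37e-05) and 4.30-fold above puberty (log2 change 2.10 ± 0.16, adjusted p = 0.000235). Tnc had 51.0, 56.5 and 34.8 units at puberty, 50.2 and 35.0 at pregnancy, 168 and 349 at lactation, and 47.5 and 54.96 at involution. The 2 lactation arrays were above all others though far from each other, with a 5.79-fold higher signal than at pregnancy (log2 change 2.53 ± 0.39, adjusted p = 0.00136) and a 4.75-fold lower one at involution than at lactation (adjusted p = 0.00204).

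Different probe sets of a gene did not always give the same answer. The 17 genes with several probe sets had 19 further ones that were tested and 4 that were not. At lactation against pregnancy, both sets were called for 10 of the 19 in the same direction and for 2 in opposite directions. The opposite ones were a further probe set of Col1a2, which was higher at lactation (log2 change 1.01, adjusted p = 0.00763) where the brightest had -2.79, and a dim one of Col18a1 (1.45, adjusted p = 0.000269, against -1.22). The further probe set of Col1a1 fell by 1.76 on the log2 scale, and those of Col3a1 had changes of -3.11 and -1.60. For Lamb3 the further probe set was higher at pregnancy than at puberty by 2.19 and had a change of -1.99 at lactation against pregnancy (adjusted p = 0.000231), where the brightest missed the threshold (-0.93, adjusted p = 0.058). At involution against lactation, 7 of the 19 were called in the same direction as the brightest and 2 in the opposite one. These 2 were the same probe sets of Col1a2 (log2 change -0.74, where the brightest had 1.34) and Col18a1 (-1.42, where the brightest had 1.02). At involution against puberty, 4 of the 19 were called in the same direction as the brightest and 0 in the opposite one. Lama3, Lamb1, Lamc1, Nid2, Col13a1, Fbln1 and Mgp were measured with probe sets that Affymetrix marks as sharing probes with other transcripts, so their signals are less certain.

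Genes that process collagen were followed in a list of enzymes and chaperones, of which 13 were tested. At lactation against pregnancy 7 fell and 4 rose, where 19.7% and 21.6% of all tested probe sets did. The median log2 change of the list was -0.91. Serpinh1, the chaperone of newly made collagen, was at 240 and 305 units at lactation, against 1198 and 877 at pregnancy (log2 change -1.92 ± 0.25, adjusted p = 0.000542). Pcolce, which speeds the trimming of fibrillar collagens, moved likewise (-1.87 ± 0.27, adjusted p = 0.000874). P4hb, a subunit of the enzyme that hydroxylates collagen and a folding enzyme of secreted proteins in general, was at 3209 and 2431 units at lactation, against 433 and 388 at pregnancy (2.77 ± 0.47, adjusted p = 0.00211). At involution against puberty, 1 of the 13 was lower and 0 higher, where 3.10% and 4.38% of all tested probe sets were (7.48% in either direction).

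Other matrix genes outside the chosen families gave a similar count, with 16 of 22 lower and 1 higher at lactation than at pregnancy (median -1.15). The shares over all tested probe sets were 19.7% and 21.6%. Dpt, a small protein that binds decorin and collagen, had 65.0 and 53.3 units at lactation, against 515 and 447 at pregnancy (log2 change -3.03 ± 0.19, adjusted p = 2.25e-05). Ltbp4, which stores growth factor in elastic fibres, was lower at pregnancy than at puberty (-1.28 ± 0.13, adjusted p = 0.000952), and Tgfbi, an adhesion protein, was higher at involution than at lactation (1.88 ± 0.17, adjusted p = 8.5e-05). Of 18 matrix receptor genes, 4 rose and 4 fell at lactation against pregnancy, shares close to the 21.6% and 19.7% of all probe sets. Itgav, an integrin alpha chain, was 1.90 ± 0.18 higher on the log2 scale (adjusted p = 0.000147), as was the proteoglycan Sdc4 by 1.43 ± 0.19 (adjusted p = 0.000622), while Cd47, a thrombospondin receptor, fell by 2.19 ± 0.17 (adjusted p = 5.46e-05).

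Markers of cell types also differed between the stages, and their part in the results was not tested. Of all tested probe sets, 19.7% were lower and 21.6% higher at lactation than at pregnancy. For involution against puberty, the shares were 3.10% lower and 4.38% higher. Of 9 fibroblast markers, 5 were lower and 1 higher at lactation than at pregnancy, with a median change of -1.01 and a summed signal of 703 to 816 units at lactation, against 1339 to 1793 at pregnancy. Cd34, Thy1 and Fap had changes of -2.63, -2.08 and -2.10. The 1 higher was Twist2 (1.74, adjusted p = 0.00366), while Prrx1 (0.11), Vim (-0.04) and Pdgfrb (-0.75) were not called. At involution against puberty, 0 of the 9 were called, with a median of -0.30 and summed signals of 1438 to 1657 units at involution, against 1768 to 2217 at puberty. In the same contrast of lactation against pregnancy, 5 of 6 tested white adipocyte markers were lower (summed signal of 1897 to 2321 units at lactation, against 5780 to 8461 at pregnancy), as were 5 of 8 endothelial markers (788 to 793 against 1197 to 1240) and 6 of 8 macrophage markers (2881 to 3861 against 5487 to 5513). On both lactation arrays 1 adipocyte and 1 endothelial marker were at or under the floor, and 0 fibroblast and 0 macrophage markers were. The markers of luminal and secretory epithelium, which include milk protein genes, summed to 78139 to 99089 units at lactation, against 16593 to 16810 at pregnancy. By call, 3 of these 9 genes were higher at lactation (the milk protein genes Lalba, Csn3 and Wap) and 3 were lower. The lower ones were the keratins Krt8, Krt18 and Krt19, with log2 changes of -0.94, -2.29 and -2.88.

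Basal or myoepithelial markers come from the cells that rest on the basement membrane and make part of it. They were called higher at pregnancy than at puberty for 5 of 7 genes. Of all tested probe sets, 6.20% were higher and 5.22% lower at pregnancy than at puberty, and 4.38% and 3.10% at involution. The summed signal of the basal markers was 4556 to 4607 units at pregnancy, against 1278 to 1441 at puberty. At involution against puberty 3 of the 7 were higher and 0 lower, with sums of 2002.5 to 2142 units at involution, against 1278 to 1441 at puberty. Macrophage markers were higher at involution than at puberty for 6 of 8 genes, with sums of 9493 to 11548 units at involution, against 5044 to 5759 at puberty. Skeletal muscle markers set the puberty glands apart: all 10 were lower at pregnancy and at involution than at puberty, with summed signals of 642 to 1669 units at pregnancy and 923 to 1111 at involution, against 10569 to 25849 at puberty. The same puberty arrays enter every comparison with puberty above.

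**Figure D4:**
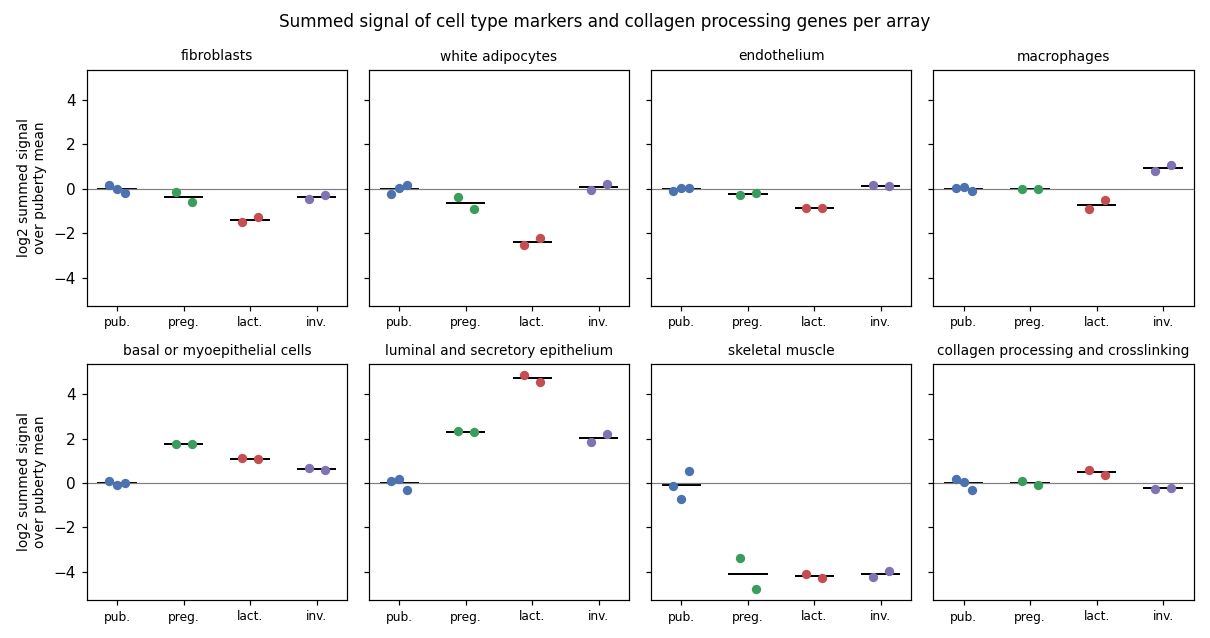
Log2 of the summed signal of 7 lists of cell type markers and of the collagen processing genes, over its puberty mean, by stage; points are arrays and bars are means of the log2 values. The fibroblast, adipocyte, endothelial and macrophage lists have their lowest values at lactation, the luminal list its highest, and the muscle list is high at puberty alone. The collagen processing sum is also highest at lactation, at 5846 and 5013 units, of which P4hb gave 3209 and 2431. By call, 7 of its 13 genes were lower at lactation than at pregnancy and 4 were higher, against 19.7% and 21.6% of all tested probe sets.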

How the data were processed

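RNA of 9 whole inguinal mammary glands was hybridised to MG-U74Av2 arrays, 1 animal an array. The amount of cRNA per array differs between the methods and the labels and could not be settled. The authors made 1 signal intensity per probe set with MAS5 (named in the submitters' processing notes, version not given in the sources used here). The deposited intensities are linear and scaled per array to a trimmed mean of 125.1, and they come before the GeneSpring steps of the methods (a filter, a normalization per gene and an analysis of variance).

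From these, 66 control probe sets of 12488 were left out, and each array was multiplied by 0.948 to 1.06 to bring its median to a common value. Values under 20, the floor, were set to 20 before log2, which adds no order below it and understates the folds of dim genes. Probe sets with a mean above 20 in at least 1 stage (9784) were tested with limma 3.58.1 in R 4.3.3 (lmFit, eBayes with a trend), all 9 arrays sharing 1 estimate of the spread with 5 residual degrees of freedom. An F test covered the stages and 4 contrasts followed, each adjusted by Benjamini-Hochberg. Arrays of a stage correlated at 0.947 to 0.975, and those of different stages at 0.724 to 0.935. The number of arrays limits the precision.

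Names came from the platform annotation, updated through Entrez IDs to RefSeq's GRCm38.p6 genes. The 1 probe set with several symbols that names a matrix gene was not used. Members, classes and lists were chosen with earlier results of these data known. Values for every array are given for a fixed set of genes and for the 2 genes of each class with the smallest F test p, and from each further list up to 3 genes with the smallest such p are named. Other genes are named where they went against their class, and these were chosen after their values were seen.

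The fit was tested on simulated data with known changes. Alternatives were the deposited scale, the 75th percentile, quantile normalization, other floors and filters, an added constant, no trend, robust fitting, the replicate number as a block, all probe sets of a gene averaged, a wider basement membrane class, and leaving out each array. Same-numbered arrays of different stages are different animals, and the correlations of their deviations were -0.153 to 0.049 over 12 pairs (9 distinct values, since the deviations of 2 arrays mirror each other), so numbers were not used to pair them. The methods' analysis of variance was not repeated, since its error model was not found. Tables were made with pandas 2.3.3 and the R package data.table (version 1.17.8), and figures with matplotlib 3.10.9.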

Additional observations from a re-analysis of the deposited data

How the results depend on the processing

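With 2 or 3 arrays a stage, comparisons with puberty depended on single arrays more than those with lactation did. Over the 48 genes and 4 contrasts, 3728 values under alternatives stayed on their side of the threshold, 172 calls were lost, 84 were gained and 0 changed direction. The counts of called genes by the F test (33 to 36 with an array left out), at lactation against pregnancy (29 to 34) and at involution against lactation (24 to 31) stayed within 1.5 times the reported ones. Calls kept under every alternative numbered 24 of 32 at lactation against pregnancy, 20 of 30 at involution against lactation, 2 of 10 at pregnancy against puberty and 2 of 12 at involution against puberty. Leaving out an array gave 2 to 11 called genes at pregnancy against puberty and 2 to 10 at involution against puberty, where no filter gave 7. With the replicate number as a block, which does not pair animals here, these 2 contrasts gave 4 and 7 called genes, and the difference of class medians at pregnancy against puberty was 0.35.

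The difference of the basement membrane and fibrillar medians was 0.46 with a filter of 100 at pregnancy against puberty (0.064 to 0.35 with an array left out). At lactation against pregnancy it was 1.71 with quantile normalization, 1.42 without a floor, 1.70 with a floor of 50, 0.69 without a filter, 0.26 with all probe sets averaged and 1.39 with Col15a1 and Col18a1 added (1.35 to 1.76 with an array left out). At involution against lactation the same alternatives gave -0.39 without a floor, -0.75 with a floor of 50, -0.18 without a filter, 0.16 with all probe sets averaged and -0.24 with both genes added (-0.79 to -0.15 with an array left out). At involution against puberty it was 1.03 with quantile normalization, 0.72 without a filter and 1.07 with a filter of 100 (0.81 to 1.11 with an array left out). The causes of these shifts were not tested. Signals near the floor limit Col8a1, Col11a1, Col10a1, Fbn2 and the lactation values of Col4a5, Col17a1, Thbs2 and Thbs3.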
